A study of Homo sapiens with 11 samples.

Results

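Interferon-stimulated genes are the genes that cells switch on when type I or type III interferon binds its receptor, and 49 of them were followed here through all 9 RNA-Seq libraries of the series and through its splicing tables. They were chosen by name, from textbook knowledge of the interferon response but with earlier results of these data known. Each was found, with 1 entry, among the 57773 genes of the deposited table. All 49 had a mean of at least 1 FPKM (a read abundance scaled for transcript length and library size, so that levels can be compared between genes), which 15179 genes of the table had, and 44 had a mean of at least 5 FPKM. The libraries came from HCC78, a lung adenocarcinoma cell line that carries a U2AF1 S34F allele beside a wild-type allele, and a fusion of SLC34A2 with ROS1. U2AF1 is the splicing factor subunit that recognises the AG at the end of an intron, and S34F is its recurrent mutation in lung adenocarcinoma and myelodysplastic syndromes. The groups were the wild-type line with doxycycline (WT dox+, 2 libraries), the same line without it (WT dox-, 2 libraries), the mutant line with doxycycline (S34F dox+, 2 libraries), that line without it (S34F dox-, 1 library), and HCC78 with no construct (parental, 2 libraries). Both transduced lines held a lentiviral, tetracycline-inducible construct for U2AF1 with FLAG and HA tags, wild-type in one and S34F in the other, and both lines and the parental cells kept the endogenous S34F allele. The lines were made as stable subclones, so a difference between lines, or between a line and the parental cells, can also be a difference between clones. The sample labels give the parental cells as untreated, whereas a supplementary table of the study heads them as treated with doxycycline. Nothing in the labels says that replicates came from separate cultures, so each p-value measures only the spread between these libraries.

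In the type I response, interferon binding activates the kinases JAK1 and TYK2, which phosphorylate STAT2. STAT2 and IRF9 act in the complex ISGF3, which binds the interferon-stimulated response element (ISRE) in the promoters of its target genes, while interferon gamma acts through gamma-activated sites (GAS). The products of these genes sense viral RNA, degrade it, block its translation, hinder entry into and release from the cell, and feed back on the signal, and many tumor cell lines express some of them without added interferon.

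Promoters were examined first, since the ISRE is what ISGF3 binds at these genes. RefSeq promoter windows (GRCh38.p14, 250 bases before to 50 bases after each listed start site) were matched for 40 members, 39 by symbol and DDX58 by its current symbol RIGI. IRF7, DHX58, OAS2, OASL, IFIT2, IFITM2, MX2, USP18 and TRIM22 were not matched. The ISRE core GAAANNGAAA, searched on both strands (TTTCNNTTTC on the reverse strand), was found in a window of 27 of the 40 matched members (67.5%), against 4.38% of all 27305 genes with a window and 3.57% of all 35116 windows. The GAS core TTCNNNGAA, which reads the same on both strands, was found in 12 of the 40 (30.0%), against 9.38% of all genes with a window and 7.66% of all windows. The members were chosen as interferon-stimulated genes, so the share with an ISRE is a description of the set. ISRE matches began between 196 bases before and 24 bases after the start site, nearly all of them before it. The median log2 fold change with doxycycline in the wild-type line, described below, was 0.19 in the 27 members with an ISRE core and 0.39 in the 13 matched members without one.

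The windows of 6 members are shown because the expression and splicing results turn on them. IFITM1 passed the adjusted test, ISG20 had the largest difference between the lines in its change with doxycycline, OAS1 lay below the parental level in every transduced library, IFIT1 was among the largest differences with doxycycline, IFI44 ran opposite to most members, and IFI27 carried a splicing event past the thresholds. Each is written 5′ to 3′ on the strand of the gene, the plus strand in all 6 cases, with base 251 as the start site and capitals for the ISRE and GAS cores. The windows are chr11:313790-314089 for IFITM1, chr15:88638766-88639065 for ISG20, chr12:112906712-112907011 for OAS1, chr10:89392373-89392672 for IFIT1, chr1:78649539-78649838 for IFI44 and chr14:94110486-94110785 for IFI27.
IFITM1: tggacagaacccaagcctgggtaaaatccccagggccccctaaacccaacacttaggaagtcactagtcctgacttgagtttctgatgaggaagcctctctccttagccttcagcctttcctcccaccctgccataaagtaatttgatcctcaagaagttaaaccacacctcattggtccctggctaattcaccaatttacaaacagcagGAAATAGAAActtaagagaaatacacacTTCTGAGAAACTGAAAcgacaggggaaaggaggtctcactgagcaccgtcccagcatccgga
ISG20: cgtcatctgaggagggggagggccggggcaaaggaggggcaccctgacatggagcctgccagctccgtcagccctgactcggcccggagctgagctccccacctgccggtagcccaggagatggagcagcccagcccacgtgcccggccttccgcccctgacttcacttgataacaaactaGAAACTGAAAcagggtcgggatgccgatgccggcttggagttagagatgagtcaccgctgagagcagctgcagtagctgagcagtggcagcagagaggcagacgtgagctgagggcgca
IFIT1: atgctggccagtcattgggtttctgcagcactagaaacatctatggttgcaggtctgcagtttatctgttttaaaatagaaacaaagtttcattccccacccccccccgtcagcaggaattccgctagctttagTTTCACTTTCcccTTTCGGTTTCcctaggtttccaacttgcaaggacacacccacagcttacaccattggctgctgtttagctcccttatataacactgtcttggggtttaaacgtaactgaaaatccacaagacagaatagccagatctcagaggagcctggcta
IFI27: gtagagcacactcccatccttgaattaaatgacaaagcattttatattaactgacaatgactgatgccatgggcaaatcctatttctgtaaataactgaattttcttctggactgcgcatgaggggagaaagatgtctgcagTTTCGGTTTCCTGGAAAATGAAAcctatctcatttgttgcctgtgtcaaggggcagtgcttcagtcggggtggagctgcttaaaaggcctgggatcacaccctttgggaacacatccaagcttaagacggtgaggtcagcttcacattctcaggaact
OAS1: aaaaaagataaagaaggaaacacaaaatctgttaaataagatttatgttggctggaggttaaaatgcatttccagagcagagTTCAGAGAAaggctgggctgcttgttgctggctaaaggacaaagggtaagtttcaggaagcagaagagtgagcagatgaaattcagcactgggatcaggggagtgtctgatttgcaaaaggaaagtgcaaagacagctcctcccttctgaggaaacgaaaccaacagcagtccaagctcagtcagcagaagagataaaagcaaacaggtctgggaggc
IFI44: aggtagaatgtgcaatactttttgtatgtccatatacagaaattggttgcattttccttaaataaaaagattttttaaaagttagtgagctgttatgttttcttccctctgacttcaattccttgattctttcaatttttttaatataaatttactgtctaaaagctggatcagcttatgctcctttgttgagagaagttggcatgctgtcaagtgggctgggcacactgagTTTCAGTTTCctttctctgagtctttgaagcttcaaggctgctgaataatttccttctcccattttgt
The IFITM1 window held 2 ISRE cores, the second of which overlapped a GAS core, so that they form 1 run of capitals. The IFI27 window also held 2 ISRE cores, joined by a GAS core between them. IFIT1 had 2 ISRE cores and ISG20 and IFI44 had 1 each. The OAS1 window held 1 GAS core and no match to the ISRE core, which says only that these letters were not in that window.

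**Figure D1:**
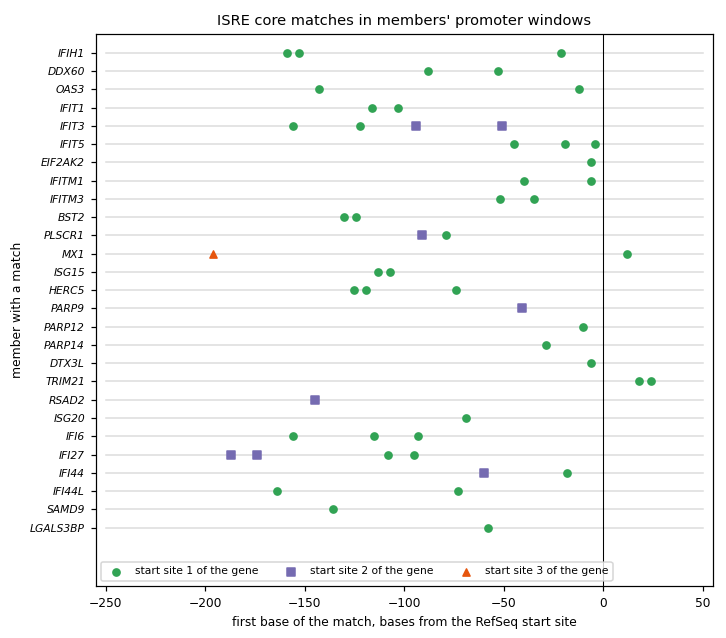
Positions of ISRE core matches in the RefSeq promoter windows of the 27 members that had one. Each row is a gene, the x axis is the distance in bases of the first base of the match from the start site (vertical line), and marker shape and color give which of the listed start sites of the gene the window belongs to. Matches lie mostly to the left of the start site, and only MX1 and TRIM21 had a match after it.

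All 9 libraries expressed epithelial genes and the lung lineage gene NKX2-1, while other lung markers were low or varied. The epithelial genes EPCAM and KRT7 had 407 to 545 and 2873 to 4196 FPKM, and NKX2-1, the lung lineage factor, had 49.05 to 67.8 FPKM. The surfactant genes SFTPC and SFTPB reached at most 0.69 and 2.05 FPKM. The lung marker NAPSA had 7.39 and 9.97 FPKM in parental cells and 1.73 to 4.02 FPKM in the transduced libraries. U2AF1 had 103 to 115 FPKM in the 5 libraries without induction, against 278 and 299 FPKM for WT dox+ and 164 and 223 FPKM for S34F dox+, and by the labels the S34F share of U2AF1 mRNA was 12% and 14% in WT dox+, 62% and 65% in S34F dox+ and 28% to 33% in the others. Genes at 1 FPKM or above numbered 13661 to 14688 in the 5 libraries without induction and 15736 to 20896 in the 4 dox+ libraries. S34F dox+ replicate 2 had the most, at 20896, against 13661 to 17716 in the other 8 libraries. Summed FPKM of 13 leukocyte markers was 31.7 and 36.1 in parental cells, 19.3 and 20.1 in WT dox-, 26.2 and 28.9 in WT dox+, 24.3 in S34F dox- and 38.8 and 41.7 in S34F dox+, mostly from CD68 (13.5 to 34.4 FPKM). The defining leukocyte genes PTPRC, CD3E and CD14 reached at most 2.71, 1.67 and 0.55 FPKM. ITGAM reached 2.72 FPKM in parental replicate 1 and NCAM1 5.91 FPKM in S34F dox+ replicate 2. Of the 4 leukocyte markers with a mean of at least 1 FPKM, 3 were higher in both WT dox+ than in both WT dox- libraries. Of all tested genes 28.9% were. In the mutant line all 4 were higher with doxycycline, where 42.9% of all tested genes were. Summed FPKM of 11 endothelial and fibroblast markers ranged from 5.10 to 9.67 without induction and from 10.1 to 16.6 in the 4 dox+ libraries, with COL1A1 as the gene of the highest mean (2.83 to 7.0 FPKM). The part of these markers in the results below was not tested. The samples were bulk RNA, so fewer cells that express a gene and less RNA of it per cell cannot be told apart.

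Levels of the members spanned a wide range, from a mean of 1.06 FPKM for OASL to 359 FPKM for LGALS3BP, with a median of 17.4 FPKM. Of the 49, 5 members had a mean under 5 FPKM, 23 had 5 to under 20 FPKM, 18 had 20 to under 100 FPKM and 3 had 100 FPKM or more. The 3 highest were LGALS3BP, a secreted glycoprotein that binds galectins, at 332 to 394 FPKM, IFITM3, a membrane protein that hinders virus entry at endosomes, at 98.9 to 155 FPKM, and TRIM25, a ubiquitin ligase that acts on RIG-I and also takes part in ISG15 conjugation, at 95.1 to 117 FPKM. LGALS3BP and TRIM25 were also the 2 steadiest members, their highest library being 1.19 and 1.23 times the lowest. TRIM22, a ubiquitin ligase that restricts viruses, varied most, its highest library being 10.2 times the lowest.

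By role, the transcription factors of the response ranged from IRF7, the factor that amplifies type I interferon genes, at a mean of 5.81 FPKM to IRF1 at 42.8 FPKM. The RNA helicases that sense viral RNA lay between 9.32 FPKM (DHX58, also LGP2) and 16.5 FPKM (DDX60). Among the oligoadenylate synthetase family, of which OAS1, OAS2 and OAS3 activate RNase L on double-stranded RNA, OAS3 was highest at 35.0 FPKM and OASL lowest. Of the proteins that block translation, EIF2AK2, the kinase PKR that phosphorylates eIF2 alpha, had 75.4 FPKM and IFIT2, which binds viral RNA, 5.91 FPKM. The membrane proteins that act on entry and release were the most abundant role, at a median of 90.0 FPKM. MX1 and MX2, the dynamin-like GTPases, had 14.9 and 10.98 FPKM. The ISG15 system, a ubiquitin-like modifier with its enzymes, ran from 3.41 FPKM for the ligase HERC5 to TRIM25. Of the ADP-ribosyltransferases and their partner DTX3L, DTX3L was highest at 62.5 FPKM. SP110, a nuclear body protein, had 41.9 FPKM, and ISG20, an RNA exonuclease, had 6.89 FPKM, the highest of the nucleotide and nucleic acid enzymes. RSAD2 (viperin) and CMPK2, neighbours that act on nucleotides, had 3.24 and 2.38 FPKM.

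**Figure D2:**
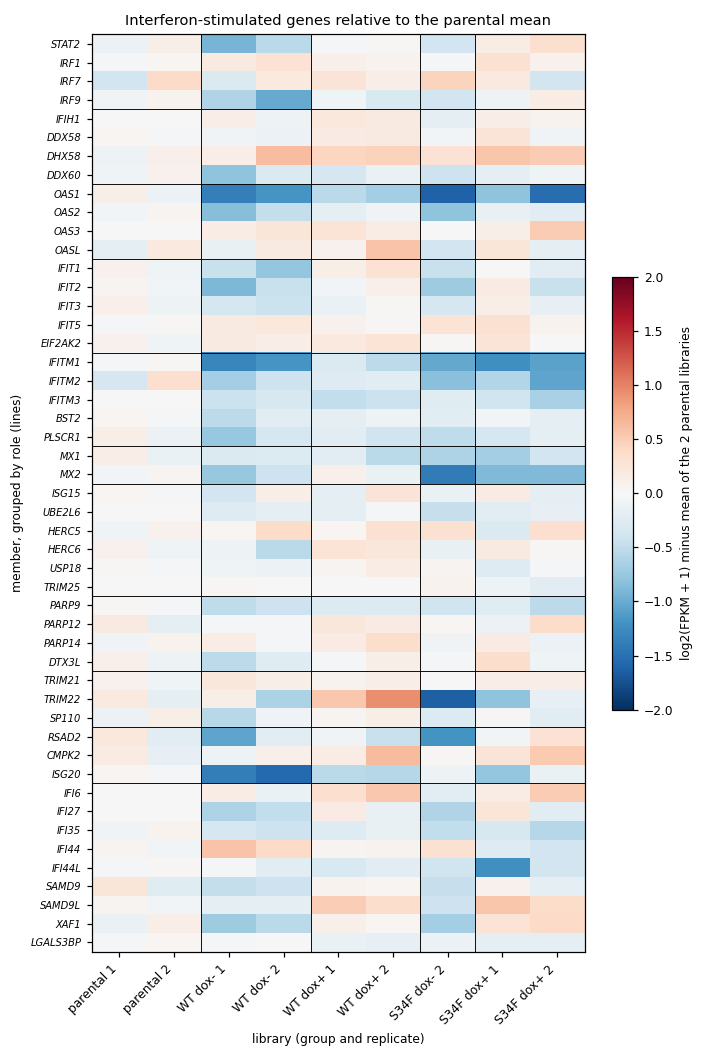
Level of the 49 members in each of the 9 libraries, as log2(FPKM + 1) minus the mean of the 2 parental libraries. Rows are genes in blocks by role, columns are libraries in blocks by group, red is above and blue below the parental mean. OAS1 and IFITM1 are below the parental mean in all 7 transduced libraries, TRIM22 reaches its highest values in WT dox+ and its lowest in S34F dox-, and IFI44 is highest in the 3 uninduced transduced libraries.

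For tests, log2(FPKM + 1) of the 15179 genes was fitted with limma-trend over all 5 groups, and adjusted p-values (Benjamini-Hochberg) run over all of those genes. A fold change on this scale understates the change of low genes. Groups are said not to overlap when every library of one lies beyond every library of the other, which with so few libraries many genes do, so each count is given beside the share of all tested genes that met the same condition.

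The first comparison set the uninduced wild-type line against the parental cells. Most members were lower in the line. In 28 of 49 members both WT dox- libraries lay below both parental libraries, where 22.4% of all genes did, and in 7 members they lay above, where 21.6% of all genes did. With TPM in place of FPKM these counts were 24 and 11, beside 15.4% and 31.2% of all genes. By the adjusted test 1 member, IFITM1, was lower, beside 0.0593% of all genes, and 0 were higher, beside 0.0395%. At an unadjusted p under 0.05 there were 19 lower members (6.54% of all genes) and 1 higher (5.79%). These became 10 and 2 without WT dox- replicate 1. The median log2 fold change of the members was -0.28, against 0 for all genes. These values compare 1 subclone with its parent.

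IFITM1, a membrane protein that blocks virus fusion at the cell surface, had 38.7 and 39.6 FPKM in parental cells and 15.2 and 16.7 FPKM in WT dox-. The groups were far apart, and it fell by 1.25 on the log2 scale (SE 0.13), with a limma adjusted p of 0.0336. The adjusted p was 0.0904 to 0.277 when any 1 of the 8 libraries of the groups with 2 replicates was left out, and 0.0505 to 0.192 with median-ratio scaling, quantile normalization, TPM or no minimum FPKM. With protein-coding genes alone it was 0.00941, and OAS1 (limma adjusted p = 0.0482) and ISG20 (limma adjusted p = 0.0336) passed too. IFITM1, IFITM2 and IFITM3 are close paralogs whose shared reads RSEM apportions, so their separate levels are uncertain.

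Among the members that did not pass, ISG20 had 10.2 and 9.58 FPKM in parental cells and 3.19 and 2.72 FPKM in WT dox-, which gave a log2 fold change of -1.46 (SE 0.23, limma adjusted p = 0.103). OAS1, which makes the 2-5A that activates RNase L, had 46.9 and 39.4 FPKM against 16.1 and 18.5 FPKM, which gave a log2 fold change of -1.27 (SE 0.23, limma adjusted p = 0.131). Both groups were well separated for these 2 genes. STAT2 and IRF9, which act in ISGF3, had log2 fold changes of -0.74 (SE 0.17) and -0.81 (SE 0.18), each with a limma adjusted p of 0.169. STAT2 had 19.7 and 23.3 FPKM in parental cells and 10.8 and 14.4 FPKM in WT dox-, and IRF9 had 15.2 and 17.0 FPKM against 10.3 and 7.48 FPKM. All 5 membrane proteins and both MX genes lay below the parental libraries, where 22.4% of all genes did. OAS1 and OAS2 also lay below, but OAS3 did not, and its 34.6 and 37.0 FPKM lay above 30.8 and 31.4 FPKM. IFI44, a cytoplasmic protein of the response, was the 1 higher member at an unadjusted p under 0.05. It had 75.6 and 70.6 FPKM in parental cells and 109 and 95.4 FPKM in WT dox-, which gave a log2 fold change of 0.48 (SE 0.11, limma adjusted p = 0.179).

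In the uninduced mutant line, of which there was 1 library, 35 of 49 members lay below both parental libraries, where 36.5% of all genes did, and 7 above, where 33.4% of all genes did. With median-ratio scaling the counts were 30 and 12, beside 28.8% and 43.1% of all genes. With TPM they were 29 and 14, beside 25.4% and 47.3%. By the adjusted test 0 members were lower (0.0593% of all genes) and 0 higher (0.0527%), in a fit where the lone library was assumed to vary like the others. At an unadjusted p under 0.05 limma had 16 members lower (4.84% of all genes) and 0 higher (4.1%), and without parental replicate 1 there were 9 lower. The median of the members was -0.27 and that of all genes -0.01. This comparison shares the parental libraries with the one before it.

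TRIM22 had 6.67 and 4.80 FPKM in parental cells and 1.14 FPKM in S34F dox-, its lowest value of all libraries. Its log2 fold change was -1.64 (SE 0.41, limma adjusted p = 0.301). OAS1 had 13.3 FPKM in S34F dox-, also its lowest value, and a log2 fold change of -1.62 (SE 0.28, limma adjusted p = 0.158). MX2, which restricts retroviruses and herpesviruses at the nuclear pore, had 14.3 and 15.5 FPKM in parental cells and 5.05 FPKM in S34F dox-, which gave a log2 fold change of -1.39 (SE 0.21, limma adjusted p = 0.102). It was called lower when protein-coding genes alone were tested (limma adjusted p = 0.0398). RSAD2, at 4.78 and 3.27 FPKM in parental cells and 1.18 FPKM here, and IFITM1, at 18.7 FPKM here, had log2 fold changes of -1.19 (SE 0.42, limma adjusted p = 0.474) and -1.02 (SE 0.16, limma adjusted p = 0.120). ISG20 differed from the wild-type line: its 9.15 FPKM in S34F dox- was just under the parental 10.2 and 9.58 FPKM. All 4 oligoadenylate synthetases were below both parental libraries, where 36.5% of all genes were. The gap of OAS3, at 30.76 FPKM against 30.77 and 31.4 FPKM, was far smaller than the spread of the parental libraries.

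Doxycycline in the wild-type line went with higher levels of most members. By the labels no parental library was treated, so in either line doxycycline itself and the induced construct cannot be told apart. Both WT dox+ libraries lay above both WT dox- libraries for 31 of 49 members, where 28.9% of all genes did, and below for 5, where 20.8% did. With median-ratio scaling the counts were 25 and 10, beside 20.4% and 31.3% of all genes. The limma fit gave 0 members higher (0.00659% of all genes) and 0 lower (0.00659%) at an adjusted p under 0.05. Unadjusted p-values under 0.05 were found for 18 higher members (8.8% of all genes) and 1 lower (5.59%). The count of 18 was 9 with median-ratio scaling and 7 without WT dox+ replicate 1. It was 10 without WT dox+ replicate 2 and also without WT dox- replicate 1. The median log2 fold change of the members was 0.26, against 0.05 for all genes. In this comparison U2AF1, induced as the transgene, had a log2 fold change of 1.37 (SE 0.15, limma adjusted p = 0.0506).

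The smallest adjusted p was that of IFITM1, which had 32.0 and 27.0 FPKM in WT dox+ against 15.2 and 16.7 FPKM in WT dox-. The log2 fold change was 0.85 (SE 0.13, limma adjusted p = 0.101), and its induced level was still under the 38.7 and 39.6 FPKM of the parental cells. ISG20 had 6.52 and 6.34 FPKM with doxycycline, about in the middle between its uninduced and parental values, which gave a log2 fold change of 0.91 (SE 0.23, limma adjusted p = 0.181). TRIM22 had 8.71 and 11.7 FPKM against 6.20 and 3.28 FPKM, which gave a log2 fold change of 1.00 (SE 0.33, limma adjusted p = 0.266), and its 2 induced libraries were the highest of all 9. IFIT1, which binds viral RNA that lacks the host cap methylation, had 9.30 and 10.6 FPKM against 5.93 and 4.51 FPKM, which gave a log2 fold change of 0.82 (SE 0.18, limma adjusted p = 0.156). STAT2 had 20.9 and 21.7 FPKM against 10.8 and 14.4 FPKM, which gave a log2 fold change of 0.73 (SE 0.17, limma adjusted p = 0.163). The groups did not overlap for any of these 5 genes.

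By role, all 4 genes of the ADP-ribosyltransferases and DTX3L lay above, as did 4 of 5 translation inhibitors and 3 of 5 membrane proteins. So did 2 of 4 oligoadenylate synthetases and 6 of the 9 members without a common role. Of all genes, 28.9% lay above. The 5 members that lay below were IRF1, IFIT5, TRIM25, IFI44 and LGALS3BP. IFI44 had 75.6 and 77.1 FPKM with doxycycline against 109 and 95.4 FPKM without, which gave a log2 fold change of -0.41 (SE 0.11, limma adjusted p = 0.199). It was the only member lower at an unadjusted p under 0.05. IRF1, at 42.2 and 41.6 FPKM against 44.7 and 48.2 FPKM, and TRIM25, at 111 and 111 FPKM against 113 and 112 FPKM, had only narrow gaps between the groups.

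In the mutant line, doxycycline gave the following. Both S34F dox+ libraries lay above the 1 S34F dox- library for 28 of 49 members, where 42.9% of all genes did, and below it for 8, where 28.7% did. With median-ratio scaling the counts were 12 and 17, beside 25.8% and 48.2% of all genes. With TPM they were 23 and 12, beside 33.6% and 38.6%. The limma fit gave 0 members higher (0.198% of all genes) and 0 lower (0.0856%) at an adjusted p under 0.05, and 9 higher (10.6% of all genes) and 1 lower (5.11%) at an unadjusted p under 0.05, which became 4 and 5 with median-ratio scaling and 7 and 3 without either S34F dox+ library. The median of the members was 0.22 and that of all genes 0.09. Median-ratio scaling moved the median of all genes to -0.15 and that of the members to -0.05, so the direction of the members' median in this line depended on the scaling, while its place above the median of all genes did not.

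XAF1, a pro-apoptotic antagonist of XIAP, had 13.5 and 14.6 FPKM in S34F dox+ and 6.47 FPKM in S34F dox-, which gave a log2 fold change of 1.01 (SE 0.19, limma adjusted p = 0.103). SAMD9L, an antiviral and growth-suppressing protein, had 16.1 and 14.0 FPKM against 7.67 FPKM, which gave a log2 fold change of 0.89 (SE 0.17, limma adjusted p = 0.112). Both induced libraries were about alike for these 2 genes. RSAD2 had 3.80 and 5.04 FPKM against 1.18 FPKM, which gave a log2 fold change of 1.30 (SE 0.42, limma adjusted p = 0.226), and TRIM22 had 2.82 and 4.94 FPKM against 1.14 FPKM, which gave a log2 fold change of 1.15 (SE 0.41, limma adjusted p = 0.254). IFI44 was again the 1 lower member, with 60.9 and 55.8 FPKM against 90.9 FPKM, which gave a log2 fold change of -0.63 (SE 0.14, limma adjusted p = 0.132). All 4 oligoadenylate synthetases lay above, where 42.9% of all genes did. The gap was small for OAS1, at 24.3 and 14.3 FPKM against 13.3 FPKM. OASL was low throughout, at 1.33 and 0.74 FPKM against 0.50 FPKM. None of the 4 genes of the ADP-ribosyltransferases and DTX3L lay wholly above or below.

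The wild-type and mutant lines share no libraries in these comparisons. In both lines the libraries with doxycycline lay above those without it for 20 members, where 20.7% of all genes did, and below them for 3, where 13.1% did. The 20 members were STAT2, IRF9, IFIH1, OAS1, OAS2, IFIT1, IFIT2, IFIT3, BST2, MX2, UBE2L6, HERC6, TRIM22, SP110, CMPK2, IFI6, IFI27, SAMD9, SAMD9L and XAF1, and the 3 were IFI44, TRIM25 and LGALS3BP. With median-ratio scaling there were 10 above (11.8% of all genes), namely STAT2, IRF9, OAS2, MX2, TRIM22, CMPK2, IFI6, IFI27, SAMD9L and XAF1, and 8 below (25.9% of all genes). IFI27, a small mitochondrial membrane protein, had 125 and 101 FPKM in WT dox+ against 72.3 and 79.0 FPKM, and 132 and 94.8 FPKM in S34F dox+ against 72.7 FPKM. OAS1 had 29.2 and 26.3 FPKM in WT dox+ and 24.3 and 14.3 FPKM in S34F dox+, all under the parental 46.9 and 39.4 FPKM.

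**Figure D3:**
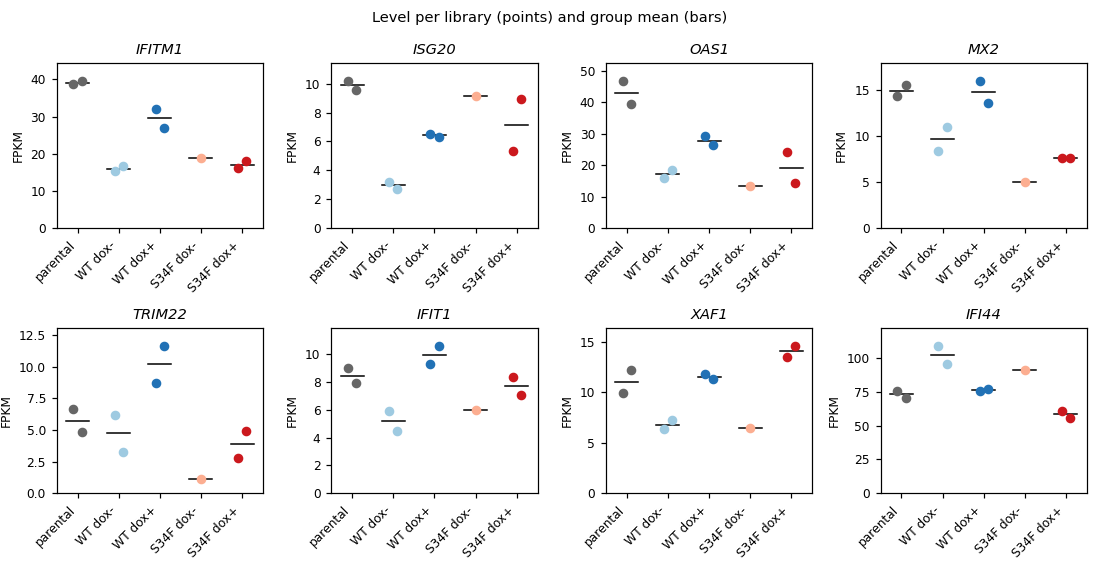
FPKM of 8 members in each library, by group, with points for libraries and a horizontal bar for the group mean, on axes that start at 0. IFITM1 and ISG20 in WT dox+ lie between the WT dox- and parental points and are below the 1 S34F dox- point in both S34F dox+ libraries, MX2 is at 13.5 and 16.0 FPKM in WT dox+ and at 7.59 and 7.60 FPKM in S34F dox+, and IFI44 is highest in the uninduced lines.

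The study's main contrast, the mutant against the wild-type construct under doxycycline, gave more members lower than higher. U2AF1 itself had 164 and 223 FPKM in S34F dox+ against 278 and 299 FPKM in WT dox+. The form of the construct and the level of U2AF1 cannot be told apart here. Both S34F dox+ libraries lay below both WT dox+ libraries for 16 of 49 members, where 15.3% of all genes did, and above for 4, where 20.5% did. With TPM the counts were 26 and 0, beside 27.2% and 10.9% of all genes. The limma fit gave 0 members lower (0.0329% of all genes) and 0 higher (0.0198%) at an adjusted p under 0.05, and 6 lower (2.77% of all genes) and 0 higher (4.01%) at an unadjusted p under 0.05. Without WT dox+ replicate 2 the count of 6 was 3. The median log2 fold change was -0.09 in the members and 0.03 in all genes. The 4 members that lay above were STAT2, DHX58, RSAD2 and XAF1. Beside the 6 genes described next, those that lay below were IFIH1, IFIT1, HERC6, USP18, TRIM25, PARP14, SP110, IFI35, IFI44L and LGALS3BP.

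TRIM22 had 2.82 and 4.94 FPKM in S34F dox+ and 8.71 and 11.7 FPKM in WT dox+, which gave a log2 fold change of -1.22 (SE 0.33, limma adjusted p = 0.546). MX2 had 7.59 and 7.60 FPKM against 16.0 and 13.5 FPKM, which gave a log2 fold change of -0.87 (SE 0.17, limma adjusted p = 0.361). For both genes the uninduced mutant line already had the lowest value of the series. IFITM1 had 16.1 and 18.1 FPKM against 32.0 and 27.0 FPKM, which gave a log2 fold change of -0.75 (SE 0.13, limma adjusted p = 0.327). IFITM2 had 78.6 and 56.7 FPKM against 99.1 and 102 FPKM, which gave a log2 fold change of -0.58 (SE 0.24, limma adjusted p = 0.719), and OAS1 had a log2 fold change of -0.55 (SE 0.23, limma adjusted p = 0.729). IFI44, the sixth gene, had 60.9 and 55.8 FPKM against 75.6 and 77.1 FPKM, which gave a log2 fold change of -0.38 (SE 0.11, limma adjusted p = 0.555). STAT2 lay the other way, with 23.9 and 27.0 FPKM in S34F dox+ against 20.9 and 21.7 FPKM.

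The difference between the lines in their change with doxycycline, tested in the same fit, gave 0 members higher (0.00659% of all genes) and 0 lower (0.0198%) at an adjusted p under 0.05, and 2 lower (1.21% of all genes) and 0 higher (2.21%) at an unadjusted p under 0.05. The 2 were ISG20, with a difference of -1.26 (SE 0.36), and IFITM1, with a difference of -0.97 (SE 0.21), and both had a limma adjusted p of 1.0. ISG20 had 5.35 and 8.96 FPKM in S34F dox+ against 9.15 FPKM in S34F dox-, while it was higher with doxycycline in the wild-type line. RSAD2, with a difference of 0.93 (SE 0.54), IRF7, with -0.79 (SE 0.50), and IFIT1, with -0.50 (SE 0.29), were the other 3 of the 5 largest, again with a limma adjusted p of 1.0. The mutant line entered with 1 uninduced library. The median of the members was -0.10 and that of all genes 0.03. Without WT dox- replicate 1 the members' median was -0.0007.

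**Figure D4:**
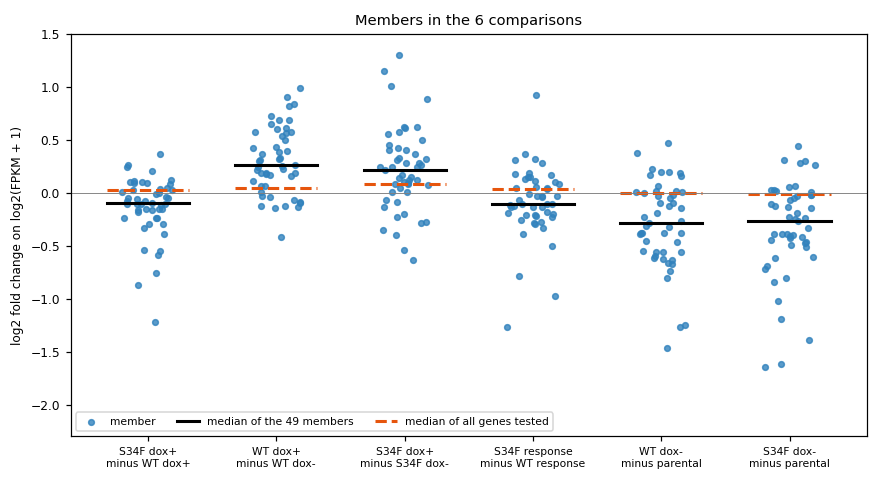
Log2 fold change on the log2(FPKM + 1) scale of each of the 49 members (points) in the 6 comparisons, with the median of the members (solid bar) and of all 15179 genes tested (dashed bar). The members' median lies above that of all genes in both comparisons of doxycycline with no doxycycline and below it in the other 4.

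Ligands, receptors and other genes of the pathway, from lists written from textbook knowledge, were read in the same fit. None of their genes passed an adjusted p under 0.05 in any of the 6 comparisons. Of 21 interferon ligand genes found in the table, 2 had a mean of at least 1 FPKM. IFNB1 reached at most 1.37 FPKM, IFNG 0.27 FPKM, and IFNL3 was listed at 0 in every library. All 4 dox+ libraries had more genes at 1 FPKM or above than the 5 others. The part of this in the ligand levels was not tested. The ligand IFNE, known from mucosal epithelium, stood out from the other ligands. It had 1.65 and 2.00 FPKM in parental cells, 1.46 and 1.51 FPKM in WT dox- and 1.75 FPKM in S34F dox-. It had 7.83 and 6.09 FPKM in WT dox+ and 6.68 and 7.72 FPKM in S34F dox+, so that all 4 induced libraries lay above all 5 others. Its log2 fold change with doxycycline was 1.67 (SE 0.22, limma adjusted p = 0.0767) in the wild-type line and 1.57 (SE 0.27, limma adjusted p = 0.0807) in the mutant line.

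The receptor genes IFNAR1 and IFNAR2, the chains of the type I receptor, had 19.7 to 37.2 and 21.0 to 35.1 FPKM, and IFNLR1, a chain of the type III receptor, stayed under 1 FPKM at 0.37 to 0.99. Of 7 tested genes induced by interferon gamma, mostly guanylate-binding proteins, 6 lay above without overlap with doxycycline in each line, where 28.9% of all genes did in the wild-type line and 42.9% in the mutant line with its 1 uninduced library, and their median log2 fold changes were 0.35 in the wild-type line and 0.61 in the mutant line. GBP3, the highest of that list, had 184 and 148 FPKM in parental cells, 116 and 114 FPKM in WT dox-, 155 and 149 FPKM in WT dox+, 115 FPKM in S34F dox- and 178 and 147 FPKM in S34F dox+. The chemokines CXCL9, CXCL10 and CXCL11 stayed under 1 FPKM. Of 12 tested negative regulators, 1 was higher and 4 were lower in WT dox+ than in WT dox- without overlap, where 28.9% and 20.8% of all genes were. The corresponding counts in the mutant line were 1 and 8, where the shares of all genes were 42.9% and 28.7%. Their highest member, ADAR, had 114 to 124 FPKM. Of 11 tested sensors and adaptors, led by IFI16 at 243 to 370 FPKM, 3 were higher and 3 lower in the wild-type line and 2 and 3 in the mutant line, beside the same shares of all genes.

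Splicing was read from the authors' MISO tables, which compare cells overexpressing the S34F and the wild-type form, give 1 value per condition without replicates, and hold for each event a PSI (the fraction of transcripts with the first-listed form, such as the included exon) and a Bayes factor for a difference. The tables listed 263 events of members, and 260 of these, in 43 members, were supported by 10 or more reads in the 2 conditions together. None was listed with enough reads for IFIH1, IFIT2, IFIT5, ISG15, RSAD2 and CMPK2. An alternative 3′ splice site and a NAGNAG event were listed with the same values under both IFITM1 and IFITM2. Each of them is counted once for each gene, so not all of the 260 are distinct. The thresholds were an absolute PSI difference of 0.10 or more with a Bayes factor not under 5. Past both there were 4 events in 3 members, 1.54% of the 260, beside 1.18% of all 87763 events with such reads. They were 2 of 117 skipped exons and 2 of 47 alternative 3′ splice sites. None of 18 retained introns, 31 alternative 5′ splice sites and 47 NAGNAG events passed. Without replicates no spread between samples stands behind these differences.

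In IRF7, a skipped exon event at chr11:613865-614476 (GRCh37, minus strand) had a PSI of 0.81 in mutant against 0.19 in wild-type cells, with a Bayes factor of 38.97 on 105 and 166 reads. It was the largest difference of the 4. Another skipped exon event of IRF7 listed over the same span had 0.33 in mutant against 0.42 in wild-type cells. Its Bayes factor was 0.75, on 69 and 109 reads. An alternative 3′ splice site event over that span had 0.81 against 0.64, with a Bayes factor of 0.71. The expression of IRF7 ran from 3.88 to 7.70 FPKM, at 6.31 and 3.88 FPKM for S34F dox+ and 6.65 and 5.99 FPKM for WT dox+, so the 2 groups overlapped. In IFI27, a skipped exon event at chr14:94578119-94582127 (GRCh37, plus strand) had a PSI of 0.56 in mutant against 0.88 in wild-type cells, with a Bayes factor of 6.00 on 226 and 316 reads. Its promoter window, shown above in the newer build, is that of a gene whose FPKM overlapped between S34F dox+ and WT dox+.

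In EIF2AK2, both events past the thresholds were alternative 3′ splice sites that share the span chr2:37376058-37384051 (GRCh37, minus strand) and the same donor, and differ in which sites they include, so they are not independent. One, with 4 values given by the authors, had a PSI of 0.16 in mutant against 0.37 in wild-type cells for the form with the largest Bayes factor, 281.25, on 663 and 2065 reads. The other, with 3 values, had 0.19 and 0.40, a Bayes factor of 23.76, on 2541 and 4728 reads. The form with the largest Bayes factor need not be the first-listed one. Which splice site it uses was not recorded for either event. The level of EIF2AK2 was 83.2 and 68.8 FPKM in S34F dox+ and 79.1 and 83.4 FPKM in WT dox+.

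PARP14, a mono-ADP-ribosyltransferase, had an alternative 5′ splice site with a Bayes factor of 19.33 but a difference of -0.05, from 0.96 in wild-type to 0.91 in S34F. The next events by Bayes factor were under the limit of 5. A retained intron event of TRIM22 had a PSI of 0.48 in mutant against 0.80 in wild-type cells, at a Bayes factor of 4.07 from 71 and 184 reads. Its first-listed form is the spliced junction, so the lower PSI stands for more of the retained form in mutant cells. A skipped exon of ISG20 had 0.78 against 0.29, at a Bayes factor of 4.01 from 44 and 63 reads. Skipped exons of HERC6, IRF9 and SAMD9L had Bayes factors of 3.83, 3.40 and 3.30, and an alternative 5′ splice site of IFI6 had 3.25. In all, 80 events of members differed by at least 0.10 in PSI with a Bayes factor under 5, and 218 of the 260 had a Bayes factor under 1. For the other members with events the largest Bayes factor ran from 0 in BST2 and DTX3L to 2.13 in IFI44L.

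**Figure D5:**
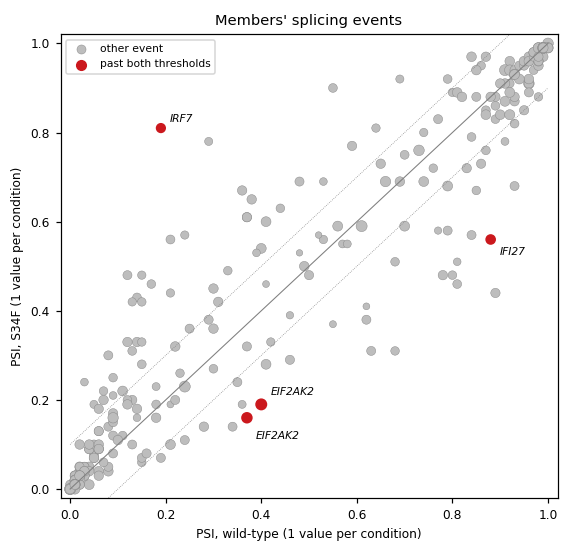
PSI of the 260 events of members in S34F (y axis) and wild-type (x axis) cells, 1 value per condition, with the line of equality, dotted lines at a difference of 0.10, and larger points for more reads. The 4 red points are the events past both thresholds, in IRF7 above the line and in EIF2AK2 and IFI27 below it, and many grey points outside the dotted lines have a Bayes factor under 5.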

How the data were processed

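RNA-Seq of 9 HCC78 libraries and a splicing comparison were analysed, and the 2 iCLIP samples were not analysed here. Per the labels and methods, the authors aligned total RNA reads to GRCh37 with STAR 2.3.0 and RSEM 1.2.29 gave the deposited gene-level FPKM and TPM. No gene counts were used, so the number of reads behind an FPKM value is unknown and no counting interval was computed. The deposited splicing tables give PSI, a fraction that the authors estimated with MISO, with a difference in PSI, a Bayes factor (a score without a fixed range) and supporting read counts, with 1 value for each condition; how replicates were combined is not given in the sources used here. S34F was read as the first side from the order of names in the deposited tables. Across 8514 genes, the S34F to wild-type ratio of supporting reads followed the FPKM ratio with a Spearman rho of 0.598. For an event with several values, that with the largest Bayes factor was used.

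log2(FPKM + 1) of the genes whose mean reached 1 FPKM was fitted with limma 3.58.1 in R 4.3.3, as a trend fit of the 5 groups without covariates, with two-sided tests. The fit was also run on simulated data with independent noise in each library, a check that does not cover shifts in scaling between libraries. The plan held 6 comparisons, and the alternatives changed the pseudocount (to 0.1), the FPKM minimum (to none or 5), the scaling (median-ratio or quantile), the unit (TPM), the gene types (protein-coding only) or the event thresholds, added a replicate block, or left out a library. The members' median relative to all genes, and the counts of non-overlapping and of unadjusted calls under these alternatives, were added after the data were seen. Members and lists were chosen with earlier results of these data known. Members were named where an adjusted p was under 0.05, among the 5 largest non-overlapping changes of a comparison (the 5 largest for the difference between the lines), for the 3 highest means, as the highest of a role, or for an event past the thresholds. One result is not reported here. Members named for other reasons were chosen after their values were seen.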

Additional observations from a re-analysis of the deposited data

Results flagged for a closer look

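For 4 members the libraries with doxycycline lay on one side of those without it in the wild-type line and on the other side in the mutant line, which has 1 uninduced library. The difference between the lines, on the log2 scale and mutant minus wild-type, was -1.26 (SE 0.36) for ISG20, -0.97 (SE 0.21) for IFITM1, -0.39 (SE 0.24) for USP18, which removes ISG15 and dampens the receptor signal, and 0.37 (SE 0.19) for IRF1. None passed the limma test of the difference after adjustment over all genes (each adjusted p = 1.0), and the unadjusted limma p was 0.00861 for ISG20, 0.00208 for IFITM1, 0.149 for USP18 and 0.0917 for IRF1. USP18 had 7.62 and 7.44 FPKM in WT dox-, 8.42 and 9.06 FPKM in WT dox+, 8.50 FPKM in S34F dox- and 6.62 and 8.01 FPKM in S34F dox+. IRF1 had 38.8 FPKM in S34F dox- and 49.1 and 41.9 FPKM in S34F dox+.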

How the results depend on the processing

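For the named members, 1193 of the recomputed log2 fold changes kept their direction and their side of the adjusted threshold, 13, all of IFITM1, lost and 3 gained a call, and 0 reversed. The cause of the changes below was not tested. In WT dox- against parental cells, 0 members were called with no minimum FPKM, median-ratio scaling, quantile normalization, TPM or the replicate block, and 0 to 0 with any 1 library left out, while protein-coding genes alone gave 3, and 1 in S34F dox- against parental. The members' median moved to -0.1932 (S34F dox+ against WT dox+), 0.074 (doxycycline in the mutant line), -0.2454 (difference between the lines), -0.1949 (WT dox- against parental) and -0.1208 (S34F dox- against parental) with TPM. With median-ratio scaling it moved to 0.1526 (doxycycline in the wild-type line), -0.242 (difference between the lines) and -0.1769 (S34F dox- against parental), and it reversed to -0.0491 with doxycycline in the mutant line, where quantile normalization gave 0.1366. There, without a minimum FPKM, the members' median lay 0.0296 above that of all genes. With 1 library left out, the median was 0.2059 to 0.378 with doxycycline in the wild-type line and -0.1262 to -0.0007 for the difference between the lines, and minus the median of all genes 0.1734 to 0.3109 and -0.1532 to -0.0445.

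Members without overlap numbered 0 higher (10.9% of all genes) and 26 lower (27.2%) with TPM in S34F dox+ against WT dox+. With median-ratio scaling there were 10 lower (31.3%) in WT dox+ against WT dox-. In S34F dox+ against S34F dox- that scaling gave 12 higher (25.8%) and 17 lower (48.2%). In WT dox- against parental there were 11 higher (31.2% of all genes) with TPM. In S34F dox- against parental there were 12 higher (43.1%) with median-ratio scaling and 14 (47.3%) with TPM. Leaving out a library leaves fewer values to separate, so the shares of all genes rose too. In S34F dox+ against WT dox+ it gave 7 to 16 higher (32.1% to 43.9% of all genes) and 18 to 30 lower (24.2% to 35.4%). There were 6 to 9 lower (29.7% to 34%) in WT dox+ against WT dox- and 12 to 17 lower (41.1% to 42.7%) in S34F dox+ against S34F dox-. Against parental cells 9 to 13 (34.8% to 36.2%) were higher in the wild-type line and 9 to 12 (46.9% to 47.7%) in the mutant line. In both lines together, median-ratio scaling gave 10 higher (11.8% of all genes) and 8 lower (25.9%) with doxycycline. Leaving out events with several isoforms left 2 of the 4 events past the thresholds.

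Replicate numbers are shared by the groups, but same-numbered libraries did not deviate together (correlations of -0.076 to 0.037). With the replicate block, the 1 call of IFITM1 became 0 (limma adjusted p = 0.103), and unadjusted p-values under 0.05 were found for 15 higher and 1 lower member in WT dox+ against WT dox- and for 1 and 19 in WT dox- against parental.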
